A study of Mus musculus with 12 samples.

Results

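The 10 genes described here encode transcription factors of the naive pluripotency network of mouse embryonic stem cells: Nanog, Klf2, Klf4, Klf5, Esrrb, Tfcp2l1, Tbx3, Nr0b1, Zfp42 and Nr5a2. They were found by gene symbol and are 10 of 39179 genes counted. Their RNA was measured in 12 libraries of total RNA. The first experiment compared cells lacking the BMP signal transducers Smad1 and Smad5 (KO, genotype Smad1/5 -/-, 4 libraries) with cells carrying floxed alleles (FL, Smad1/5 fl/fl, 2 libraries). Both were of a mixed CD-1, 129/Ola and C57Bl/6 background and were grown on gelatin in LIF with 2i, a pair of inhibitors that block MEK and GSK3. The KO and FL libraries came from 2 parental lines, each with 1 FL and 2 KO samples, and which library belongs to which line is not stated. The second experiment sorted BRE-GFP cells, whose GFP is driven by a BMP response element, into BRE-positive and BRE-negative cells (3 libraries each). These were of a mixed CBA and C57Bl/6 background, grew in fetal calf serum with LIF on feeders, were sorted on the surface antigen SSEA1 and GFP, and were collected as pairs at 3 times.

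The naive network holds mouse embryonic stem cells in a state like that of the epiblast before implantation. LIF acts through STAT3 on Klf4 and Tfcp2l1, inhibition of GSK3 relieves repression of Esrrb by the WNT effector TCF7L1, and inhibition of MEK removes the ERK signal that drives exit from this state. The factors then bind each other's genes together with OCT4 (Pou5f1) and SOX2. BMP, acting through SMAD1 and SMAD5 and their targets, the Id genes, is known for sustaining self-renewal together with LIF.

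Library totals ranged from 25862573 to 37319846 counts. The 10 factors had 2009 to 43854 counts each per library, so that counting error was at most 2.23% of a value. The targeted genes could not check the labels, because the deleted exons are not given. Smad1 had 427, 619, 489 and 373 counts in KO libraries, against 643 and 665 in FL libraries, and Smad5 had 880, 893, 1176 and 1046 counts in KO libraries, against 1136 and 1153 in FL libraries. Of the defining stem cell markers, Pou5f1 was at 575 TPM or more and Sox2 at 574 TPM or more in every library. In bulk samples, fewer cells that make a factor and less of its RNA per cell cannot be told apart.

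Promoters of the 3 genes on which the results below turn most are shown first. These are the 250 bases before the RefSeq start site (GRCm38.p6, each on its gene's strand), with matches to the motifs searched in capitals. They are Nanog (chr6:122707239-122707488, plus strand), Zfp42 (chr8:43307010-43307259, minus strand) and Klf4 (chr4:55532476-55532725, minus strand).
Nanog: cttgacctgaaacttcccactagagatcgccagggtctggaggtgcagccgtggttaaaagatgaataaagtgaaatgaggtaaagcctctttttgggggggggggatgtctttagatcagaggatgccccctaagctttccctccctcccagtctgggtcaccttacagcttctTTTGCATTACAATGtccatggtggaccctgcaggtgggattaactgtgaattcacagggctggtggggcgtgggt
Zfp42: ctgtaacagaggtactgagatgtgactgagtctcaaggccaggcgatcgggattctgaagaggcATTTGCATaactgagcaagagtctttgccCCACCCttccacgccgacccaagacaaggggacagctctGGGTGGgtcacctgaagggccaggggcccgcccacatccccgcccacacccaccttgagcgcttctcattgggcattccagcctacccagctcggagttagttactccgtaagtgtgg
Klf4: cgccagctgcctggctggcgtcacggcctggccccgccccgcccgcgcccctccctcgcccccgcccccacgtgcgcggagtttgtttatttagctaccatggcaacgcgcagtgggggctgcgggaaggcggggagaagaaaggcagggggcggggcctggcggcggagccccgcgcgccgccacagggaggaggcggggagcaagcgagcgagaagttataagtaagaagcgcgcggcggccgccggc
The capitals in Nanog are a composite OCT and SOX element, 75 to 62 bases before the start and on the opposite strand. Of 32851 promoter windows of this length, 2 (0.00609%) held that composite, and both were windows of the 2 RefSeq start sites of Nanog. These windows overlap and hold the same site, 151 to 138 bases before the other start. The composite was searched as a long, nearly fixed run of letters, so few matches follow from the pattern chosen. Looser forms of the element were not searched, so the count does not show that such elements are confined to Nanog. The capitals in Zfp42 are an octamer (ATGCAAAT), the element bound by OCT4, 186 to 179 bases before the start, and 2 KLF boxes (CCACCC) at 157 to 152 and 118 to 113 bases before it. The octamer was in 1.60% of windows and the KLF box in 28.1%. The Klf4 window, 74% G and C, held none of the motifs searched. The others were a palindromic SMAD element (GTCTAGAC, in 0.167% of windows), a GC-rich SMAD element (GGCGCC, 9.59%), a STAT site (TTCNNGGAA, 4.06%) and the ESRRB and NR5A2 site (CAAGGTCA, 1.33%), each searched on both strands. Windows were found for 8 of the 10 factors. Among them only Tfcp2l1 held the GC-rich SMAD element and only Esrrb the STAT site. A match is a run of letters, not a measured binding site.

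Per transcript length, in the authors' TPM, the order of the factors differed between the media. In 2i, Zfp42 was first, with a mean of 872 TPM in KO and 956 TPM in FL libraries, and Nanog second, with 470.04 and 731 TPM. Their ranges did not overlap each other or the next gene's in either group. Zfp42 encodes the zinc finger protein REX1, the reporter gene by which naive cells are often followed, and Nanog a homeodomain protein that lets cells self-renew with less LIF. In serum, Nanog was first (474 TPM in BRE-positive and 462 TPM in BRE-negative cells) and Tfcp2l1, a grainyhead-like factor downstream of LIF and STAT3, second (389.9 and 336 TPM), with overlapping ranges. Klf5 and Klf4 came next at 263 to 301 TPM and did not differ beyond their spread. Tbx3, a T-box factor that acts downstream of the LIF receptor, and Nr5a2, an orphan nuclear receptor, were lowest in each group, at 19.2 to 38.5 TPM, and overlapped each other throughout. Among 21775 protein-coding genes, Zfp42 ranked 56 by mean TPM in KO and 48 in FL libraries, but 444 in BRE-positive and 509 in BRE-negative cells. Nanog ranked 169, 88, 147 and 156 in the same order of groups.

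**Figure D1:**
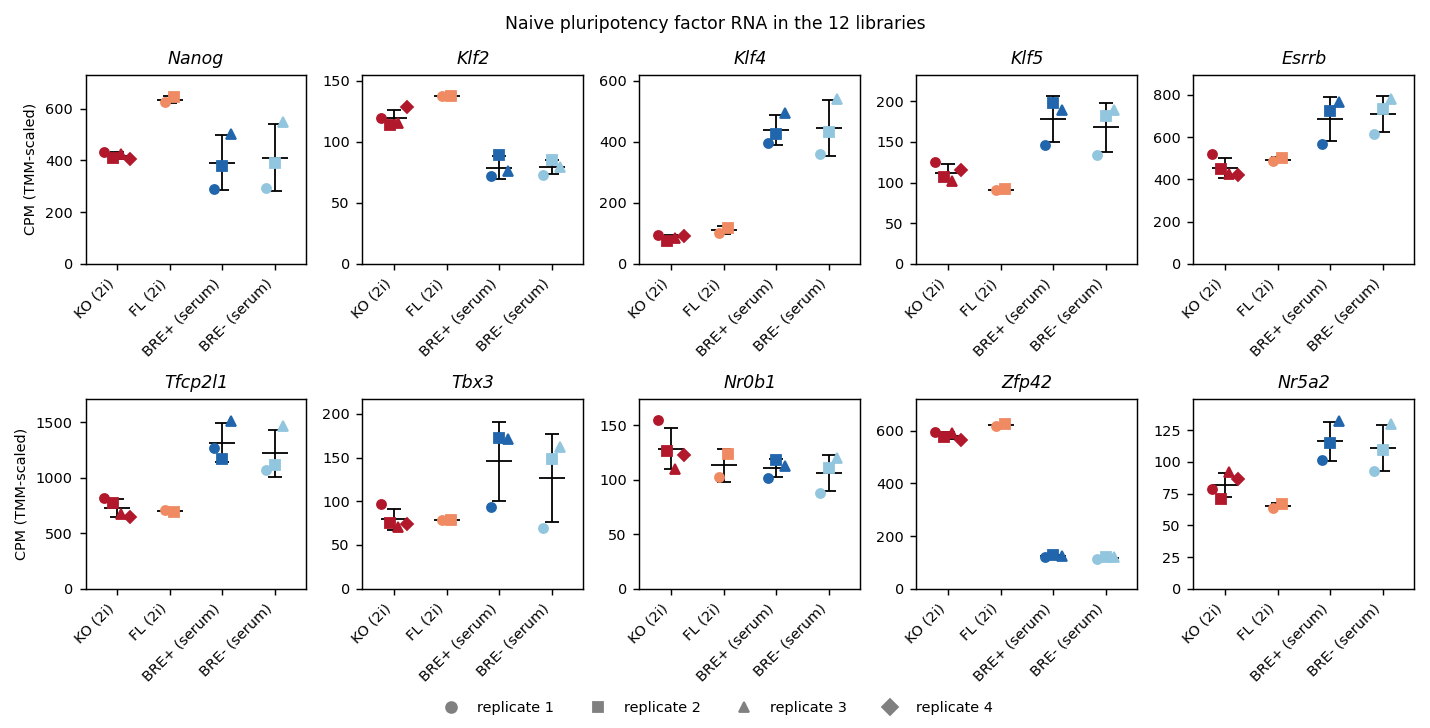
RNA of each factor in CPM (counts per 1000000, scaled by TMM, on a linear axis from 0) by group, with each library as a point whose shape gives its replicate number, the group mean as a bar and 1 SD as whiskers. Nanog sits between 406 and 433 CPM in the 4 KO libraries, below both FL libraries at 627 and 644 CPM, while Zfp42 and Klf4 differ most between 2i and serum.

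Loss of Smad1 and Smad5 in 2i was accompanied by a fall of 1 of the 10 factors, Nanog, in the comparison of KO with FL libraries. Levels between libraries are given in CPM, counts per 1000000 scaled by TMM, because TPM ratios between some libraries were shifted over all genes. For serum collection 3 over collection 1 in BRE-positive cells, the median ratio over all genes was 1.17 in TPM and 0.989 in CPM. The cause of this shift was not tested. Nanog (chr6:122707489-122714633, plus strand, GENCODE M21 on GRCm38) had 433, 409.8, 425 and 406 CPM in KO libraries, against 627 and 644 CPM in FL libraries. Every KO library lay well below both FL libraries, and the groups did not overlap. The fall was 1.52-fold (log2 fold change -0.60 ± 0.06 SE, edgeR's quasi-likelihood test with Benjamini-Hochberg adjustment over 15933 genes, adjusted p = 0.00613, lower in 4 of 4 KO libraries). The 4 KO libraries came from 2 parental lines, so they are not 4 independent lines, and the fit had no term for line. Of all genes tested, 5.03% were called, 3.18% lower and 1.85% higher. The call was kept in 14 of 17 alternative analyses, all of which gave a negative value (-0.64 to -0.48). It was lost with the replicate number as a block (-0.59, edgeR adjusted p = 0.0741). In that setting 0 genes passed, against 2589 genes with an unadjusted p under 0.05. The block compares KO replicates 1 and 2 with the FL libraries only, because KO replicates 3 and 4 have no FL library of their number. The call was also lost with all 12 libraries in 1 fit (-0.60, edgeR adjusted p = 0.133) and without FL replicate 1 (-0.62), which leaves 1 FL library. Its level relative to its partners gave the same order in TPM within a library. Nanog per Pou5f1 was 0.545 ± 0.020 in KO (SD, n = 4) and 0.854 ± 0.0075 in FL libraries (SD, n = 2). Nanog per Sox2 was 0.808 ± 0.050 in KO and 1.12 ± 0.051 in FL libraries.

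The 3 Krüppel-like factors, which bind overlapping sites and can stand in for one another in self-renewal, did not pass in this comparison. Klf4 had 94.8, 73.6, 85.3 and 93.1 CPM in KO libraries, against 100.5 and 119 CPM in FL libraries, a log2 difference of -0.34 ± 0.11 that did not pass (edgeR adjusted p = 0.132). Klf2 had 119, 114, 115 and 129 CPM in KO libraries, against 137 CPM in both FL libraries (-0.20 ± 0.07, edgeR adjusted p = 0.136). For both genes all KO libraries lay below the FL libraries. Klf5 ran the other way, with 126, 107, 102 and 116 CPM in KO libraries, against 90.4 and 92.1 CPM in FL libraries. Its difference of 0.30 ± 0.09 did not pass (edgeR adjusted p = 0.101), but did with an offset for transcript length (0.43, edgeR adjusted p = 0.0344).

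Among the nuclear receptors, Nr5a2, which can replace OCT4 in reprogramming, had 78.3, 70.4, 92.5 and 86.2 CPM in KO libraries, against 64.0 and 66.7 CPM in FL libraries. All 4 KO libraries were above the FL libraries, by 0.33 ± 0.11 on the log2 scale (edgeR adjusted p = 0.130). Esrrb, an orphan receptor repressed by TCF7L1, had 521, 448, 425 and 419 CPM in KO libraries, against 486 and 502 CPM in FL libraries, which lay inside the KO range. Esrrb (-0.23, edgeR adjusted p = 0.0258) and Nr5a2 (0.45, edgeR adjusted p = 0.00704) passed when KO replicates 1 and 2 were left out, as did 3292 genes in all. Without KO replicates 3 and 4 neither did (Esrrb -0.04, edgeR adjusted p = 0.834; Nr5a2 0.17, edgeR adjusted p = 0.343). Nr0b1, which encodes the corepressor DAX1, had 155, 127, 110.1 and 123 CPM in KO libraries, against 102 and 124 CPM in FL libraries. It overlapped between the groups and had a 95% interval of -0.13 to 0.50 on the log2 scale.

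The remaining 3 factors differed little in size. Zfp42 had 593, 575, 590.4 and 565 CPM in KO libraries, against 618 and 626 CPM in FL libraries. The groups were apart but close, and the 95% interval of the log2 difference was -0.23 to 0.03. Tfcp2l1 had 815, 772, 673 and 646 CPM in KO libraries, against 713 and 690.4 CPM in FL libraries (95% interval -0.18 to 0.28). Tbx3 had 97.0, 74.7, 70.6 and 74.3 CPM in KO libraries, against 78.1 and 79.1 CPM in FL libraries (95% interval -0.27 to 0.30). The sign of Tfcp2l1 turned in 2 of 17 alternatives, that of Tbx3 in 6 and that of Zfp42 in 1. By count, 6 of the 10 factors did not overlap between KO and FL libraries, 4 lower and 2 higher, beside 34.7% of all genes tested (16.9% lower and 17.8% higher).

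**Figure D2:**
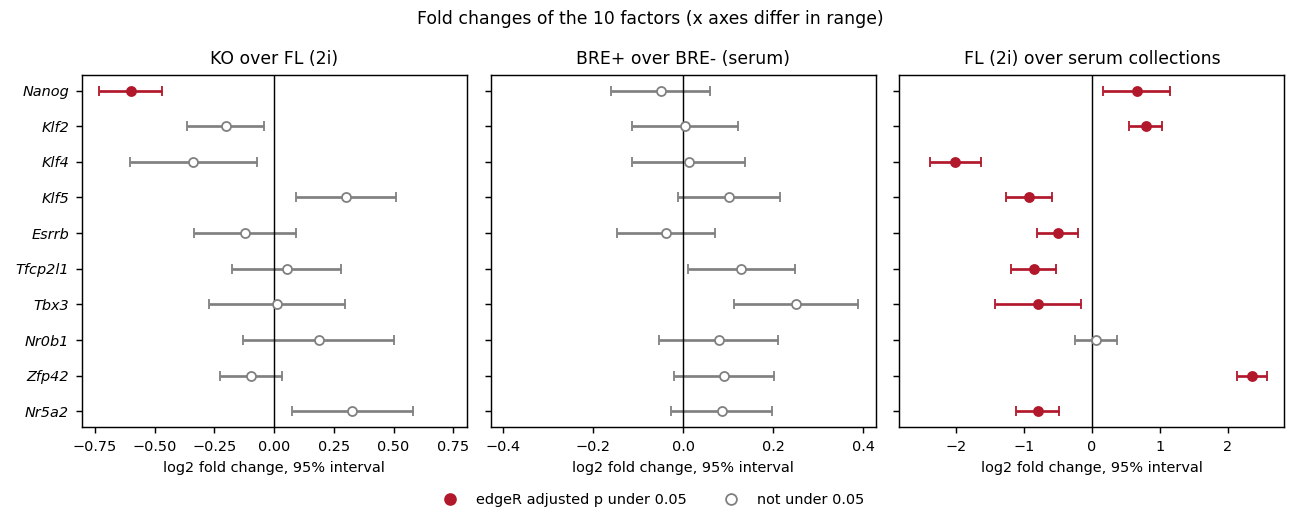
Log2 fold changes of the 10 factors with their 95% intervals for KO over FL (left), BRE-positive over BRE-negative (middle) and FL in 2i over the serum collections (right); filled red points passed the edgeR test, and the axes differ in range. Nanog alone passed on the left, none in the middle, and 9 of 10 on the right.

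Cells with and without BMP reporter activity differed little in these factors: none of the 10 passed in the comparison of BRE-positive with BRE-negative cells by edgeR or DESeq2. In limma 0 of all genes passed here, so its lack of calls says nothing about the factors. Of all genes tested, 2.97% were called by edgeR, 1.96% higher and 1.02% lower. At an unadjusted p under 0.05 there were 2 factors, Tbx3 and Tfcp2l1. Tbx3 had 93.3, 172 and 171 CPM in BRE-positive cells, against 69.2, 149 and 162 CPM in BRE-negative cells of the same collections. It was higher in 3 of 3 pairs, by 0.25 ± 0.06 on the log2 scale (95% interval 0.11 to 0.39, edgeR adjusted p = 0.0515). It passed in 5 of 12 alternatives, among them each fit that left out 1 pair (0.16 to 0.33). Without pair 1 the estimate was 0.16 ± 0.04 and without pair 3 it was 0.33 ± 0.09. Tfcp2l1 had 1272, 1167 and 1510.4 CPM in BRE-positive cells, against 1074, 1117 and 1468 CPM in BRE-negative cells, again higher in 3 of 3 pairs (0.13 ± 0.06, edgeR adjusted p = 0.235).

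Nanog, which fell in KO cells, had 291, 377 and 503 CPM in BRE-positive cells, against 293, 391 and 550.02 CPM in BRE-negative cells. The pairs lay close together while the collections were far apart. Its log2 difference was -0.05 ± 0.05 (95% interval -0.16 to 0.06, edgeR adjusted p = 0.659). Nanog and Esrrb were lower in BRE-positive cells in 3 of 3 pairs by CPM, but Nanog was higher in 3 of 3 and Esrrb in 2 of 3 by TPM. The TPM scale was shifted for genes as a whole. On log2(TPM + 1), limma gave 0.04 for Nanog and 0.05 for Esrrb, beside a median of 0.07 over all genes. The sign of both thus depends on the scale, and neither passed in any of 12 alternatives. In CPM, 5 of the 10 factors were higher in all pairs (Klf5, Tfcp2l1, Tbx3, Zfp42 and Nr5a2), beside 17.6% of all genes tested, and 2 were lower in all pairs, beside 22.7%. The median log2 difference over the 10 factors was 0.08, against 0.00 over all genes (-0.000877). For the other 7 factors the estimates lay between -0.04 and 0.10, and no upper bound of their 95% intervals exceeded 0.22.

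Some feeder fibroblast markers differed with the sort. Of 19 tested, 6 fell in BRE-positive cells by edgeR, beside 1.02% of all genes, and none rose, while 4 of the 19 had positive estimates. Those that fell include Acta2, smooth muscle actin (-1.12 ± 0.17, adjusted p = 0.00357), and Col1a2, a collagen I chain (-0.48 ± 0.11, adjusted p = 0.0279). The summed level of the 20 markers was 285, 475 and 485 TPM in BRE-positive cells, against 292, 406 and 436 TPM in BRE-negative cells, lower in pair 1 and higher in pairs 2 and 3, and none of the markers was at 0 in all libraries of either group. This sum does not measure feeder RNA alone, as it was 280 to 375 TPM in KO libraries, grown on gelatin. The part of feeder RNA in the differences of the 10 factors was not tested.

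More of the factors differed between the culture conditions. FL cells in 2i were set against the 3 serum collections, each the sum of its BRE-positive and BRE-negative library. In FL cells 3 factors were higher (Zfp42, Klf2 and Nanog) and 6 lower (Klf4, Klf5, Tfcp2l1, Nr5a2, Tbx3 and Esrrb), while 48.5% of all genes tested were called (24.7% higher, 23.8% lower). Medium, cell line, strain, feeders and sorting changed together between these experiments and cannot be told apart. Both FL libraries lay above all 6 serum libraries for 3 factors, beside 30.9% of all genes tested, and below them for 5, beside 28.2%. The FL libraries are also the controls of the KO comparison.

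Zfp42 had 618 and 626 CPM in FL cells, against 117, 124 and 122 CPM in the serum collections (mean of the 2 libraries of each). The 5.13-fold difference was the largest of the 10 factors in size (log2 2.36 ± 0.10, edgeR adjusted p = 4.63e-06). Klf2, whose protein is destabilised by ERK signalling, was at 137 CPM in both FL libraries, against 72.4, 87.0 and 77.8 CPM in serum, 1.73-fold higher (0.79 ± 0.11, edgeR adjusted p = 0.000628). Nanog had 627 and 644 CPM in FL cells, against 292, 384 and 526 CPM in serum. Both FL libraries lay above the highest serum library, with a log2 difference of 0.66 ± 0.21 (edgeR adjusted p = 0.0338). The call on Nanog was lost without FL replicate 1 (0.69, edgeR adjusted p = 0.104), without FL replicate 2 (0.64, edgeR adjusted p = 0.128) and without serum collection 2 (0.61, edgeR adjusted p = 0.105). KO cells, at 406 to 433 CPM, lay within the serum range for Nanog, and with KO and FL libraries in 1 group the difference was 0.27 and did not pass.

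Klf4 was the factor with the largest fall in FL cells. It had 100.5 and 119 CPM in FL cells, against 378, 428 and 517 CPM in serum, 4.03-fold lower (-2.01 ± 0.17, edgeR adjusted p = 6.89e-05). Klf5 had 90.4 and 92.1 CPM in FL cells, against 140.01, 189.8 and 189 CPM in serum (-0.93 ± 0.15, edgeR adjusted p = 0.00148). For Klf4 and Klf5, both FL libraries lay below all 6 serum libraries, as they did for 28.2% of all genes tested. Serum collection 1 was the lowest collection for each.

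Tfcp2l1 had 713 and 690.4 CPM in FL cells, against 1173, 1142 and 1489 CPM in serum (-0.86 ± 0.15, edgeR adjusted p = 0.00189). Nr5a2 had 64.0 and 66.7 CPM in FL cells, against 97.3, 112 and 131 CPM in serum (-0.80 ± 0.14, edgeR adjusted p = 0.00208). For both, the FL libraries were below every serum library. Esrrb had 486 and 502 CPM in FL cells, against 593, 729.8 and 775 CPM in serum (-0.51 ± 0.13, edgeR adjusted p = 0.0150). Tbx3 had 78.1 and 79.1 CPM in FL cells, against 81.3, 160.5 and 166 CPM in serum (-0.80 ± 0.28, edgeR adjusted p = 0.0426). The lowest serum library, BRE-negative of collection 1 at 69.2 CPM, was below both FL libraries for Tbx3. The call on Esrrb was lost without FL replicate 1 (edgeR adjusted p = 0.108) or 2 (edgeR adjusted p = 0.0785), and that on Tbx3 without either FL library or without collection 2 or 3 (edgeR adjusted p = 0.131 to 0.156). Without collection 1, Tbx3 fell by 1.08 (edgeR adjusted p = 4.62e-05). Nr0b1, at 102 and 124 CPM in FL cells, against 94.8, 115 and 116 CPM in serum, did not pass (95% interval -0.25 to 0.36).

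Feeder markers differed strongly here. By edgeR, 15 of 19 were lower in FL cells and 1, Vim, was higher. Col1a2 was at 0.0188 and 0.0663 TPM in FL cells, against 1.22 to 6.05 TPM in the 6 serum libraries, and Acta2 at 0.0908 and 0.128 TPM in FL cells, against 0.585 to 11.7 TPM in serum. The 20 markers together, Vim included, summed to 206 and 287 TPM in FL cells and to 285 to 485 TPM in the serum libraries, and 13 had a mean under 1 TPM in FL cells. In KO libraries, also grown on gelatin, they summed to 280 to 375 TPM, so the sum does not measure feeder RNA alone. Vim was at 83.6 to 104 TPM in KO libraries, against 19.0 to 41.4 TPM in serum. KLF4 is also made by fibroblasts, and the part of feeder RNA in the serum level of Klf4 was not tested. Across the BRE-positive libraries, Col1a2 was at 1.22, 5.68 and 4.87 TPM while Klf4 was at 397, 425 and 494 CPM. Across the BRE-negative libraries both rose, with Col1a2 at 2.36, 5.88 and 6.05 TPM and Klf4 at 358, 432 and 540 CPM.

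The make-up of the Krüppel-like trio differed between 2i and serum. In each library, Klf2, Klf4 and Klf5 were expressed as a share of their summed TPM, which needs no scaling between libraries. Klf4 made up 13.1 ± 0.84% of the trio in KO cells (SD, n = 4) and 16.3 ± 1.6% in FL cells (SD, n = 2). In serum it made up 40.6 ± 3.0% in BRE-positive and 41.6 ± 2.6% in BRE-negative cells (SD, n = 3 each). Klf2 took the opposite course, with 43.2 ± 1.8% in KO, 48.8 ± 1.2% in FL, 17.4 ± 1.6% in BRE-positive and 18.0 ± 2.2% in BRE-negative cells. Klf5 made up 43.7 ± 1.8% in KO, against 34.8 ± 0.37% in FL cells. The lowest KO library, at 41.9%, was above the highest FL library, at 35.1%. In serum Klf5 made up 42.0 ± 2.3% in BRE-positive and 40.4 ± 1.7% in BRE-negative cells, near its share in KO cells. The Klf5 share thus did not divide 2i from serum. As parts of 1 sum, the shares are not independent of each other. The sum was 404 ± 37 TPM in KO and 421 ± 18 TPM in FL cells, and 713 ± 139 TPM in BRE-positive and 648 ± 134 TPM in BRE-negative cells. The ratio of Zfp42 to Nanog divided 2i from serum, at 1.86 ± 0.017 in KO, 1.31 ± 0.013 in FL, 0.446 ± 0.11 in BRE-positive and 0.406 ± 0.11 in BRE-negative cells.

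**Figure D3:**
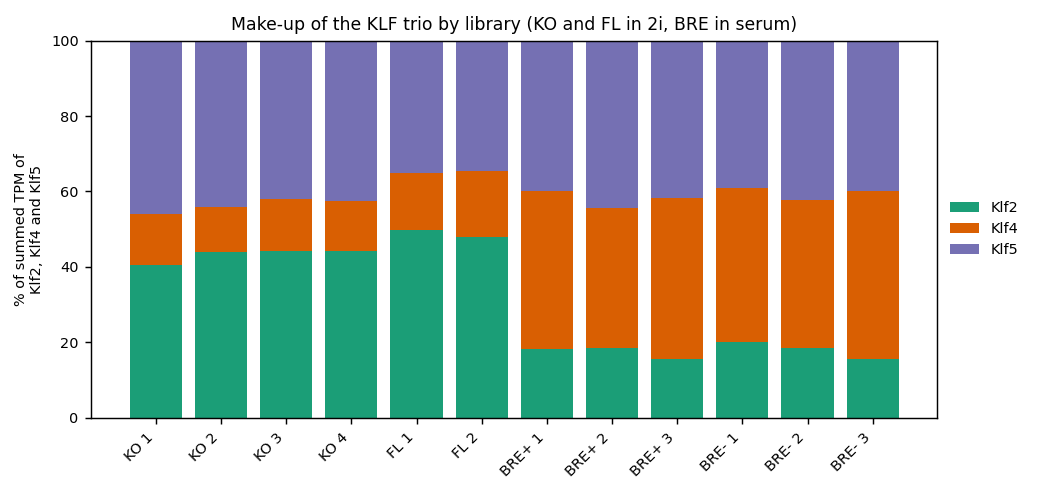
Share of Klf2, Klf4 and Klf5 (% of their summed TPM, stacked to 100) in each of the 12 libraries. Klf4 takes 11.9% to 13.8% in KO and 15.2% to 17.4% in FL libraries, against 37.1% to 44.5% in the 6 serum libraries.

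The factors also varied between the serum collections. In collection 3, all 10 factors were above their CPM in collection 1, both in BRE-positive cells (1.03-fold to 1.83-fold, median 1.27) and in BRE-negative cells (1.06-fold to 2.34-fold, median 1.38). Over 16983 genes, 47.5% and 48.3% were above 1 in the same 2 ratios. In collection 2, 9 of 10 factors were above collection 1 in BRE-positive cells (Tfcp2l1, at 0.917-fold, was the exception) and all 10 in BRE-negative cells. Tbx3 differed most, at 1.83-fold in BRE-positive and 2.34-fold in BRE-negative cells for collection 3 over 1, followed by Nanog at 1.73-fold and 1.88-fold. Zfp42, at 1.03-fold and 1.06-fold, differed least. Collection 1 also had the lowest levels of feeder markers, with Col1a2 at 1.22 TPM in BRE-positive and 2.36 TPM in BRE-negative cells, against 4.87 to 6.05 TPM in collections 2 and 3. Their part in these ratios was not tested, and no test of the collections was made.

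**Figure D4:**
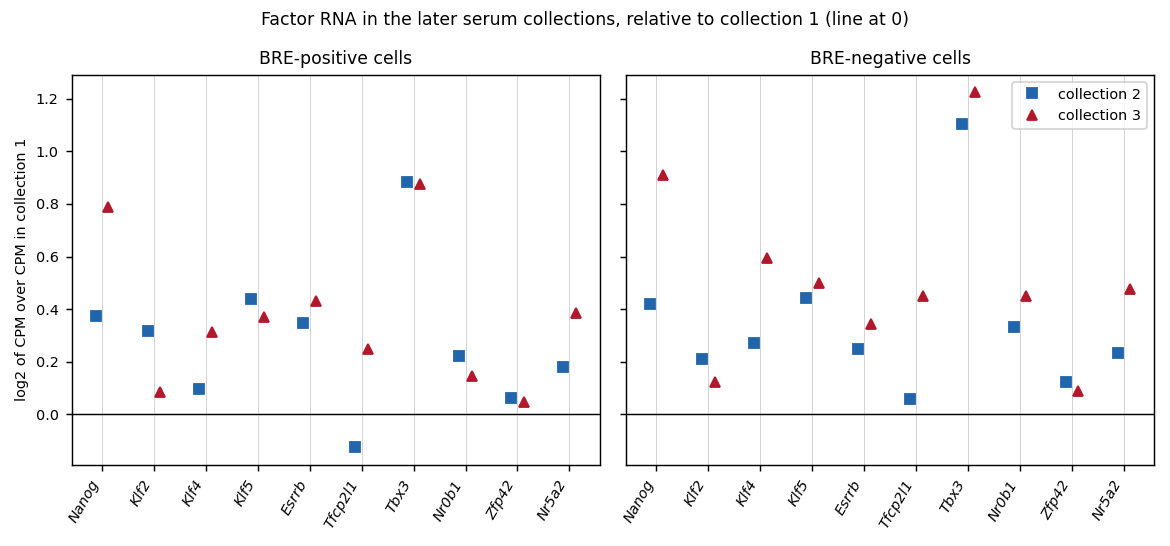
Log2 ratio of the CPM of each factor in collections 2 (squares) and 3 (triangles) to its CPM in collection 1 (line at 0), in BRE-positive (left) and BRE-negative cells (right). All points but that of Tfcp2l1 in collection 2 of BRE-positive cells lie above the line, with Tbx3 and Nanog in collection 3 reaching 2.34-fold and 1.88-fold in BRE-negative cells.

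Pairs of factors varied in the same direction more often within groups than across them. Over the deviations of the 12 libraries from their 4 group means, 44 of 45 pairs of factors had a positive Pearson r (median 0.64), from -0.27 for Klf2 with Tfcp2l1 to 0.97 for Klf5 with Tbx3. Over the 12 libraries themselves, 23 of 45 pairs had a positive r, from -0.98 to 0.95. These values are descriptions: the pairs share libraries, scaling and, in serum, the difference of collection 1 from the others. The share of positive pairs among other genes was not computed. Among 11078 protein-coding genes, those most like Zfp42 over the 12 libraries were Pnma5, Fmr1nb and Ushbp1 (r = 0.998, 0.997 and 0.997). Those most like Klf4 were Cmas, Spty2d1 and Nuak1 (r = 0.997, 0.995 and 0.994), and those most like Nanog were Nfatc2ip, Pawr and Dnah10 (r = 0.948, 0.923 and 0.914). In deviations from the group means, B4galt6, Fam179b and Cpeb4 were most like Nanog (r = 0.987, 0.981 and 0.981).

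Other genes of the network were described from lists, by edgeR with adjustment over all genes. Among 11 partners of the core (Pou5f1, Sox2 and others), Utf1, a chromatin factor of pluripotent cells, rose in KO cells by 0.76 ± 0.12 (adjusted p = 0.0188), and Dppa2, a chromatin factor of the early embryo, fell by 0.55 (adjusted p = 0.0389). The median log2 change of the 11 was 0.11, against 0.01 over all genes. Of 20 other naive genes, 2 rose and 2 fell, beside 1.85% and 3.18% of all genes tested, with a median of -0.16. Prdm14, a repressor of FGF signalling and of DNA methylation in naive cells, fell by 0.61 (adjusted p = 0.0184), and Tet2, which oxidises methylated cytosine, fell by 0.75 (adjusted p = 0.0361). Dnmt3l, a cofactor of de novo methylation, rose by 0.74 ± 0.16 (adjusted p = 0.0421), and Tdh, threonine dehydrogenase, by 0.56 ± 0.10 (adjusted p = 0.0292).

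Of 16 formative and primed genes, 2 rose in KO cells by edgeR, beside 1.85% of all genes tested. They were Sox11 (0.91 ± 0.20, adjusted p = 0.0461) and Dnmt3b, a de novo methyltransferase (0.79 ± 0.18, adjusted p = 0.0447). None of 22 LIF, WNT and FGF pathway genes, 14 regulators of exit from naive pluripotency, 11 feeder, 9 primitive endoderm and 6 trophectoderm markers tested passed there, beside 5.03% of all genes. Of 10 genes of the two-cell-like state, 9 fell in KO cells, beside 3.18% of all genes, with a median of -3.22. They include members of the Zscan4 and Tcstv families, whose near-identical copies may share reads, so single values are uncertain.

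In BRE-positive cells, 2 of the 20 other naive genes rose and 2 fell by edgeR, beside 1.96% and 1.02% of all genes tested, with a median of -0.07. Jam2, a junction protein, rose by 0.48 ± 0.06 (adjusted p = 0.000788) and Zfp57, which guards imprints, by 0.24 ± 0.05 (adjusted p = 0.0244). Dppa3, which protects DNA methylation in the early embryo, fell by 1.01 (adjusted p = 0.00357), and Mycn, a MYC family factor, fell by 0.48 (adjusted p = 0.000390). Spry2, an FGF feedback inhibitor, rose by 0.23 ± 0.05 (adjusted p = 0.0249) and Socs3, the feedback inhibitor of LIF signalling, fell by 0.27 (adjusted p = 0.0128) among the 22 pathway genes. Of 15 formative and primed genes tested, Zic2 (-0.41 ± 0.09, adjusted p = 0.0286) and Dnmt3b (-0.32 ± 0.06, adjusted p = 0.00897) fell, beside 1.02% of all genes. Mbd3, of the NuRD complex, fell among 14 exit regulators (-0.24 ± 0.06, adjusted p = 0.0482), and Tfap2c among 5 trophectoderm markers (-0.48 ± 0.07, adjusted p = 0.00203). None of 11 core partners, 9 primitive endoderm markers and the 1 two-cell-like gene tested passed.

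The same lists in FL cells relative to serum stood beside 24.7% of all genes higher and 23.8% lower by edgeR. Of 22 LIF, WNT and FGF genes, 4 were higher and 8 lower, a share near that of all genes. The immediate early gene Egr1 (-6.38 ± 0.47, adjusted p = 4.25e-05), the FGF feedback inhibitor Spry4 (-3.88 ± 0.25, adjusted p = 2.51e-05) and the ERK phosphatase Dusp6 (-3.47 ± 0.27, adjusted p = 5.07e-05) were lower, and Lef1, a nuclear effector of WNT, was higher (3.49 ± 0.52, adjusted p = 0.00100). Of the 20 other naive genes, 9 were higher and 4 lower (median 0.49). Dppa3 (3.24 ± 0.65, adjusted p = 0.00427) and Prdm14 (2.08 ± 0.15, adjusted p = 3.49e-05) were higher, and Gbx2, a homeobox factor (-2.36 ± 0.22, adjusted p = 0.000118), was lower. Beside the same 24.7% and 23.8% of all genes, core partners gave 2 higher and 4 lower of 11, formative and primed genes 7 and 6 of 16, and exit regulators 6 and 3 of 14. Primitive endoderm markers gave 1 higher and 6 lower of 10, trophectoderm markers 3 and 1 of 6, and two-cell-like genes 9 and 0 of 10.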

How the data were processed

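RNA was column-purified and made into stranded total RNA libraries after ribosomal RNA removal, per the labels' protocols. The submitters' processing notes name STAR 2.4.1d, featureCounts 1.4.6, and also DESeq2 1.6.3, and list mm10 and GRCm38.p4 as genome builds. Whether the counting used strand is not stated. The authors deposited raw counts for 39179 genes and a table of TPM, a normalised signal that equals (count + 1) per length, scaled to 1000000 over 38310 unique genes (722 repeated entries were used once). Members were found by symbol, and the members and lists were chosen with earlier results of these data known. Of each other list, up to 4 called genes with the largest change were named, and for likeness the 3 genes of highest r; 1 result that this rule gives is not reported here.

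The counts were tested with edgeR 4.0.16 (R 4.3.3): TMM scaling, its expression filter (minimum count 10, total 15), the quasi-likelihood test and Benjamini-Hochberg adjusted p under 0.05 over all genes. The procedure was tested on simulated data. The BRE fit had the pair as a block, since the series states paired collection; same-numbered libraries deviated together (r = 0.737, 0.651 and 0.594; -0.557 to 0.0783 otherwise). The KO fit had none. Groups and replicate numbers came from titles. Separate cultures are not described, so a p-value here measures spread between libraries, which may be technical. Alternatives were DESeq2 1.42.0, limma 3.58.1 on log2(TPM + 1) and log2(TPM + 0.1), RLE scaling, no filter or 1 CPM, a length offset, other blocks and sample sets, and libraries left out. Coordinates are from GENCODE M21 (GRCm38). Tbx3 overlaps the antisense gene Tbx3os1 (0 to 17 counts), and Tfcp2l1 overlaps 3 small or pseudogene entries; pseudogenes of Nanog and Zfp42 were not analysed here.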

Additional observations from a re-analysis of the deposited data

How the results depend on the processing

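Of the 10 factors, the calls on Klf2, Klf4, Klf5, Tfcp2l1, Zfp42 and Nr5a2 in FL cells over serum held in 15 of 15 alternatives, that on Esrrb in 11, on Nanog in 8 and on Tbx3 in 7. In BRE-positive cells, 1 factor (Tbx3) was higher with no filter, at 1 CPM and in each fit without 1 pair, against 0 as reported. In KO cells, 1 factor was higher with the length offset (Klf5) and without KO replicates 1 and 2 (Nr5a2). The number lower was 0 with the replicate block or all 12 libraries, and 0 to 2 with libraries left out. Genes called between BRE-positive and BRE-negative cells numbered 459, and 1010 with no filter, 191 with the length offset, 0 with no replicate block, with all 12 libraries or in limma (343, 516, and 2923 or 2669 at an unadjusted p under 0.05), and 200 to 2225 without 1 pair. Between KO and FL cells they numbered 801, and 1498 by DESeq2, 476 and 288 by limma, 1248 with the length offset, 0 with the replicate block, 0 to 857 without 1 library, 3292 without KO replicates 1 and 2, and 89 without KO replicates 3 and 4. Between FL cells and serum they numbered 8507, and 5361 to 9186 without 1 sample. With the length offset, 49.2% of BRE calls were higher, against 65.8%, and 60.6% of KO calls, against 36.7%. The cause of these differences was not tested. FL replicate 1 deviated with KO replicates 1 and 2 (r = 0.301 and 0.476) and against KO replicates 3 and 4 (r = -0.455 and -0.423). With 2 FL libraries, the values of FL replicate 2 are the same with the sign turned, so they are not independent. KO replicate 1 thus deviated with the FL library of its number, but KO replicate 2 against FL replicate 2 (r = -0.476). The deviations did not follow the replicate number in both cases. With 2 FL libraries only, these values cannot settle which KO and FL libraries belong together. The block on the number, in which KO replicates 3 and 4 add nothing to the contrast, is given as a description. Which library came from which parental line is not stated, and no fit with the line as a term was made. Counting error was at most 2.23% of any factor's value.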
